A study of Rattus norvegicus with 9 samples.

Results

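The actin, smooth-muscle contractile and focal adhesion genes described here are 46 genes chosen by symbol: actins, calponins, myosin chains, tropomyosins, filament cross-linkers, adhesion plaque proteins, LIM-domain scaffolds, SRF and its coactivator myocardin, and genes of actin turnover and its signalling. All 46 were found among the 17588 genes of the table, and all 46 were above the filter on low values, which left 11732 genes to be tested. The cells were primary chondrocytes of wild-type rats, isolated from cartilage by collagenase and grown in serum. Messenger RNA was sequenced in 9 libraries, 3 in each of 3 groups: a control group in routine culture without interleukin-1β (IL-1β), a group given IL-1β, and a group given IL-1β and then kept with dermal fibroblasts. In that last group, called co-culture below, the chondrocytes lay beneath and the fibroblasts above the membrane of a transwell insert. Strain, sex and age of the rats, how much IL-1β was added and for how long, and how long the fibroblasts were present were not given in the sources used here. No group had fibroblasts without IL-1β. Levels are FPKM, fragments counted per kilobase of transcript and scaled to library size, so that levels of different genes can be set side by side.

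Actin filaments are built from actin monomers, held together by cross-linkers such as α-actinin and filamin, stiffened by tropomyosin and pulled by myosin II. Where stress fibres end, talin, vinculin, paxillin and zyxin tie them to integrins in the focal adhesion. Chondrocytes in cartilage are rounded and hold their actin mostly under the cell membrane. When they spread on plastic they form stress fibres, and dedifferentiating chondrocytes are known to take up smooth-muscle actin. Genes of this kind are classical targets of serum response factor (SRF), which binds a DNA element called the CArG box together with its coactivators, myocardin or the myocardin-related factors. The latter enter the nucleus when free actin monomers become scarce, so that actin assembly and actin gene transcription are coupled.

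The elements that SRF binds can be read in several of these genes, and they are shown because SRF is the factor classically tied to this class of genes. A CArG box is CC, then 6 bases that are each A or T, then GG, and its reverse complement has the same form, so that a search covers both strands. In the 250 bases before the annotated starts in RefSeq (rat build GRCr8), windows were at hand for 39 of the 46 genes, 38 by gene ID and 1, Myh9, by symbol. Of these 39 genes 6 held a CArG box, or 15.4%, against 1.62% of all 27457 genes with a window. The genes were chosen by symbol from a class tied to SRF, so the higher share is no test of SRF in these cells. The 6 were Srf, Actg1, Cnn2, Fhl1, Fhl2 and Lima1. Among the genes with large changes below, Actg2, Cnn1, Mylk, Vcl and Flna held neither this box nor the looser form described next. No window was at hand for Tagln, Actb, Myocd, Lmod1, Myh11, Myl9 and Actn4. Acta2 held no exact box but carried 2 boxes in which 1 of the 6 inner bases is C or G, a looser form present in 3 of the 39 genes and in 7.39% of all genes. The sequences run 5′ to 3′ and end at the base before the start, with the boxes in capitals and, in Acta2, the looser boxes in capitals.
Acta2, chr1:241172504-241172657, minus strand: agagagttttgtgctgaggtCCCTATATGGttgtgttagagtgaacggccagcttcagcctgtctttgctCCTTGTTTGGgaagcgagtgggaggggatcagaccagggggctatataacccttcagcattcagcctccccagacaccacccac
Srf, chr9:21923946-21924075, plus strand: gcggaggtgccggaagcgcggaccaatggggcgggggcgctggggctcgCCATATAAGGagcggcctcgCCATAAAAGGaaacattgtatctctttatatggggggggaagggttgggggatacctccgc
Actg1, chr10:106120952-106121081, minus strand: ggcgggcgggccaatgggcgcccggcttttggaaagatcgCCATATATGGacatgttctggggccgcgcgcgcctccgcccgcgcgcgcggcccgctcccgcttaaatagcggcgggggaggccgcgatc
Cnn2, chr7:10370313-10370442, minus strand: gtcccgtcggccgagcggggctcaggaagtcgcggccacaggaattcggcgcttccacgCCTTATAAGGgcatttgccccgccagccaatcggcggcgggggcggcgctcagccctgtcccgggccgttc
Fhl1, chrX:139638366-139638495, plus strand: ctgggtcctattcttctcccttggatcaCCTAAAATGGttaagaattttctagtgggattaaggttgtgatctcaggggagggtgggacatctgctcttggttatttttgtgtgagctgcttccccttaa
A match of this kind describes letters and does not show that SRF was bound in these cells, and no match says only that these letters are not in this window. The boxes begin 81 and 61 bases before the start of Srf, 90 before that of Actg1 and 71 before that of Cnn2. Fhl1 had 2 windows, and only 1, the one shown, held a box, which begins 102 bases before its start. In Acta2 the looser boxes begin 134 and 84 bases before the start.

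Values of a group lay close together. Pearson's r of log2(FPKM + 1) over the tested genes was 0.994 to 0.995 within groups and 0.961 to 0.990 between groups (genes are not independent replicates). FPKM summed to 771058 to 782435 in control, 796262 to 832248 in IL-1β and 809839 to 811665 in co-culture libraries, and the main test was not rescaled for this. The absolute depth is unknown. Genes with a few low values were picked for values close to one another. Their median ratio to the first control library was 1 to 1.06, from 11 to 21 genes a library. That choice of genes holds the ratio near 1, so it measures neither depth nor the worth of 1 read. Nothing in the labels says that replicates were separate animals or cultures, so each p-value reflects only how far these libraries lay apart, and that spread may be technical. These are bulk samples, in which fewer cells of a type and less RNA per cell cannot be told apart.

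The first comparison asked how IL-1β changed these genes. The contractile and cytoskeletal genes fell broadly: 38 of the 46 passed an adjusted p of 0.05 as lower, 1 (Pdlim1) passed as higher, and 7 did not pass (limma, Benjamini-Hochberg adjustment over all 11732 genes). Over all tested genes 20.2% were called lower and 26.5% higher. The groups' libraries did not overlap, with IL-1β lower, for 41 of the 46 genes, against 25.0% of all genes, and with IL-1β higher for 2, against 31.3%. The median log2 change of the 46 was -0.28, beside 0.02 over all genes. Together the 46 genes summed to 22887 ± 201 FPKM in control and 18244 ± 100 in IL-1β libraries (mean ± SD, n = 3 libraries in each group here and below), which was 2.95% and 2.25% of each library's total. The all-gene split moved with the scaling: with libraries rescaled to a common sum 27.2% were called lower and 19.2% higher, and of the 46 genes 41 and 1. With quantile normalization the shares of all genes were 28.4% lower and 19.5% higher, and with median-of-ratios scaling 23.3% and 23.2%.

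The second comparison, co-culture against IL-1β alone, asked what differed in stimulated chondrocytes kept with fibroblasts. No group had an insert without fibroblasts, so effects of the fibroblasts and of the insert or other culture conditions cannot be told apart. Here 31 of the 46 genes passed as higher, 1 (again Pdlim1) passed as lower and 14 did not pass. Over all tested genes 11.9% were called higher and 10.1% lower. The all-gene split moved with the scaling here too, as median-of-ratios scaling gave 9.85% higher and 11.0% lower. With a common sum the shares were 10.9% higher and 9.28% lower, and with quantile normalization 12.4% and 9.86%. The libraries did not overlap, with co-culture higher, for 37 of the 46 genes, against 21.2% of all genes, and with co-culture lower for 1, against 16.5%. The median log2 change was 0.17, beside 0.02 over all genes, and the sum of the 46 genes was 20853 ± 527 FPKM, or 2.57% of the total. Both comparisons use the same IL-1β libraries, so their values are set side by side below and not tested against each other.

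The third comparison, co-culture against control, asked what difference from unstimulated cells remained. Of the 46 genes 27 passed as lower, 4 (Palld, Rhob, Pdlim1 and Pxn) as higher and 15 did not pass. Over all tested genes 12.2% were called lower and 21.8% higher. The libraries did not overlap, with co-culture lower, for 32 of the 46 genes, against 17.0% of all genes, and with co-culture higher for 6, against 29.6%. The median log2 change was -0.14, beside 0.04 over all genes. With libraries rescaled to a common sum 33 of the 46 were lower and 1, Palld, higher, and over all genes 17.1% and 13.1%. Over all genes quantile normalization gave 17.7% lower and 14.0% higher, and median-of-ratios scaling 15.9% and 15.8%.

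**Figure D1:**
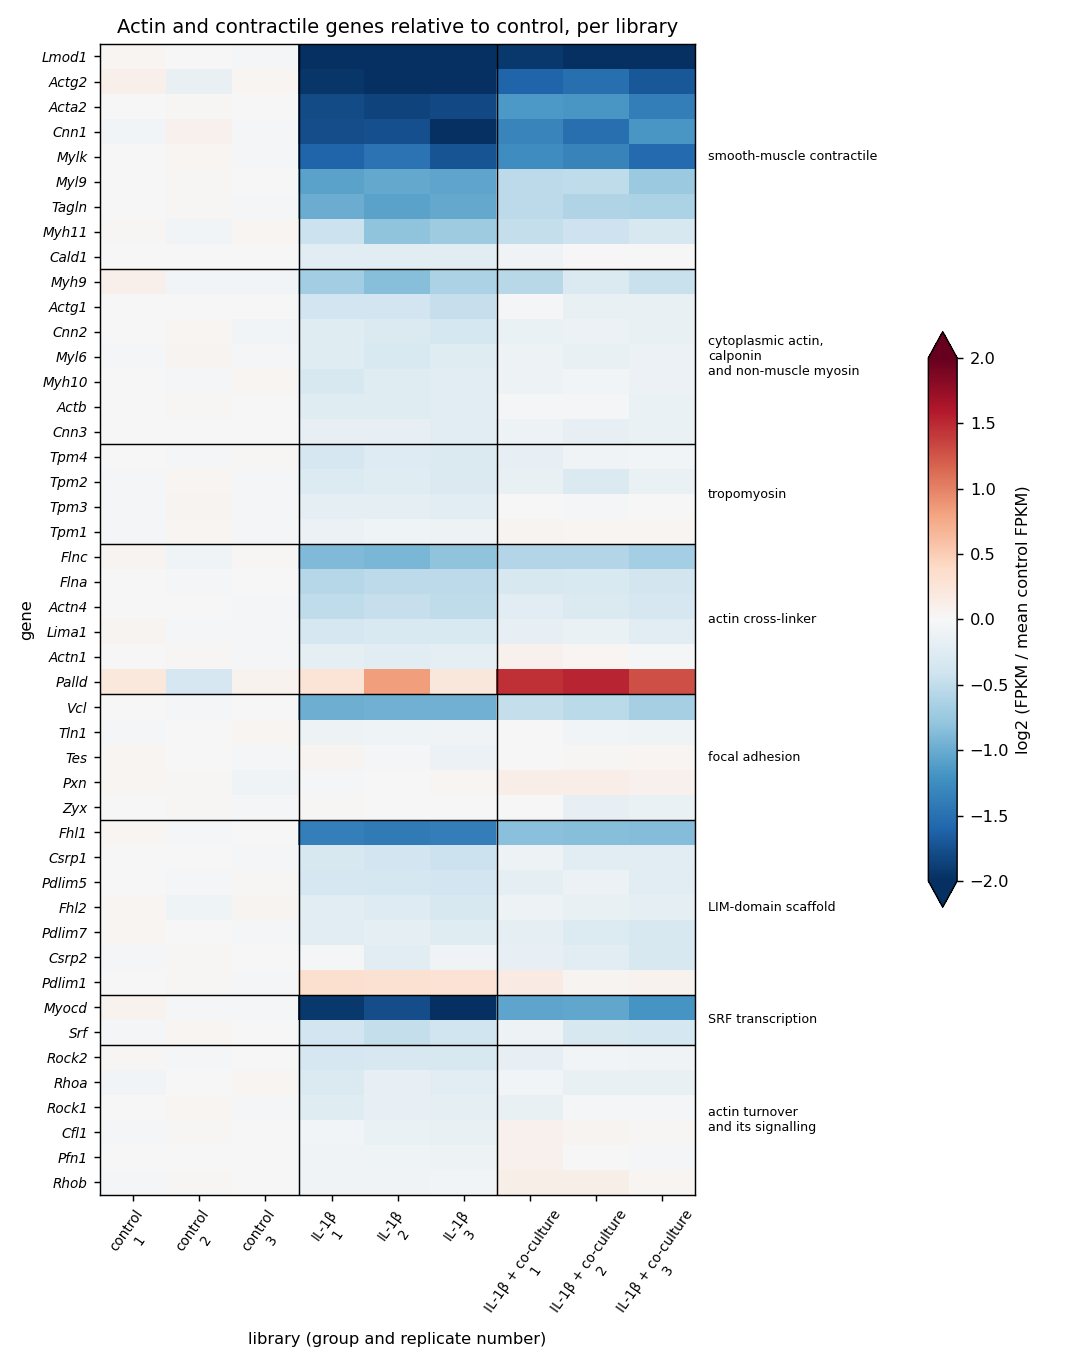
Each cell is the log2 ratio of a gene's FPKM in 1 library to its mean in the 3 control libraries, with genes in rows by role and the 9 libraries in columns; the colour scale ends at -2 and 2, beyond which values share the end colour. Blue (lower) fills the IL-1β columns for most rows and is paler in the co-culture columns, while the row named Palld is red in co-culture.

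The smooth-muscle contractile genes gave the largest changes. All 9 fell with IL-1β, 7 of 9 rose in co-culture against IL-1β, and 8 of 9 were still lower in co-culture than in control. Over all tested genes 20.2% were called lower with IL-1β, 11.9% higher in co-culture against IL-1β and 12.2% lower in co-culture than control. The median log2 changes of the 9 genes were -1.06, 0.44 and -0.93 in these comparisons. Their summed level was 2543 ± 31.1 FPKM in control, 1218 ± 23.4 with IL-1β and 1625 ± 55.7 in co-culture.

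Acta2, the actin of smooth muscle and myofibroblasts, stood at 662, 674 and 660.5 FPKM in control, 192, 185 and 190.3 with IL-1β, and 300.2, 296 and 256 in co-culture. The groups did not overlap, and the co-culture libraries lay between the others. The level with IL-1β was 3.52-fold lower than in control (log2 change -1.81, SE 0.05, adjusted p = 1.97e-09). In co-culture it was 1.50-fold higher than with IL-1β (0.58, SE 0.05, adjusted p = 4.83e-05) and still 2.34-fold below control (-1.23, SE 0.05, adjusted p = 8.28e-08). In the order of levels among the 46 genes, Acta2 was number 9 in control, 17 with IL-1β and 15 in co-culture.

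Tagln, which encodes the actin-bundling protein transgelin, was the most abundant of these contractile genes. It stood at 1362, 1400.0 and 1354 FPKM in control, 692, 652 and 676 with IL-1β, and 952, 908 and 883 in co-culture. The fall was 2.04-fold (log2 -1.03, SE 0.03, adjusted p = 5.46e-09) and the rise in co-culture 1.36-fold (0.44, SE 0.03, adjusted p = 1.73e-05). Myl9, the regulatory light chain of smooth-muscle myosin, whose phosphorylation starts contraction, followed a like course. Its levels were 121, 124 and 122 in control, 58.1, 60.0 and 58.7 with IL-1β, and 84.8, 85.7 and 73.3 in co-culture. It fell 2.08-fold (adjusted p = 1.22e-07) and rose 1.38-fold (adjusted p = 0.000235). Both genes remained lower in co-culture than in control, Tagln by 33.3% and Myl9 by 33.6% (adjusted p = 8.32e-07 and 1.79e-05).

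Actg2, the enteric smooth-muscle actin, and Cnn1, a calponin that binds actin and restrains myosin, were expressed at far lower levels. Actg2 stood at 20.8, 17.5 and 19.8 FPKM in control, 5.04, 4.37 and 4.19 with IL-1β, and 6.39, 6.80 and 5.94 in co-culture. Cnn1 stood at 21.7, 24.0 and 21.9, then 6.56, 6.66 and 5.54, and then 9.02, 7.92 and 10.1. Neither gene showed any overlap between groups. With IL-1β Actg2 was 4.26-fold and Cnn1 3.60-fold lower (log2 -1.88 and -1.70, adjusted p = 3.22e-08 and 1.53e-07). In co-culture they were 1.41-fold and 1.44-fold higher than with IL-1β (adjusted p = 0.00478 and 0.00467), and 3.03-fold and 2.50-fold lower than in control (adjusted p = 4.84e-07 and 3.45e-06).

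Lmod1, which encodes leiomodin, a starter of actin filaments in smooth muscle, gave the largest log2 change of the 46 genes with IL-1β. It stood at 6.60, 6.46 and 6.31 FPKM in control, 0.540, 0.610 and 0.680 with IL-1β, and 1.69, 1.44 and 1.16 in co-culture. The ratio of means was 10.6-fold lower with IL-1β, and the log2 change of FPKM + 1, which understates changes at such levels, was -2.21 (SE 0.09, adjusted p = 1.77e-08). Co-culture was 2.34-fold above IL-1β (0.59, SE 0.09, adjusted p = 0.00105) and 4.52-fold below control (adjusted p = 4.06e-07).

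Mylk, the kinase that phosphorylates Myl9, fell with IL-1β, and its difference in co-culture did not pass. Its levels were 3.48, 3.57 and 3.41 FPKM in control, 1.15, 1.25 and 1.05 with IL-1β, and 1.48, 1.38 and 1.19 in co-culture. It was 3.03-fold lower with IL-1β (adjusted p = 1.41e-06), and the log2 difference of co-culture from IL-1β was 0.13 (95% interval -0.04 to 0.29, adjusted p = 0.253). Myh11, the heavy chain of smooth-muscle myosin and the most specific marker of that lineage, was near the bottom in every group. It stood at 1.52, 1.45 and 1.54 in control, 1.12, 0.860 and 0.920 with IL-1β, and 1.08, 1.13 and 1.20 in co-culture. Its fall was 1.56-fold (log2 -0.35, SE 0.08, adjusted p = 0.00433), and the difference of co-culture from IL-1β was 0.12 (95% interval -0.05 to 0.30, adjusted p = 0.302).

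Cald1, caldesmon, which blocks myosin from actin and is made in many cell types, had the smallest fall with IL-1β among the contractile genes. Its levels were 333, 327 and 331 FPKM in control, 281, 282 and 285 with IL-1β, and 315, 332 and 332 in co-culture. It fell 14.4% with IL-1β (adjusted p = 6.46e-05) and rose 15.4% in co-culture (adjusted p = 0.000431). Co-culture and control overlapped, at a log2 difference of -0.02 (95% interval -0.08 to 0.04, adjusted p = 0.636).

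**Figure D2:**
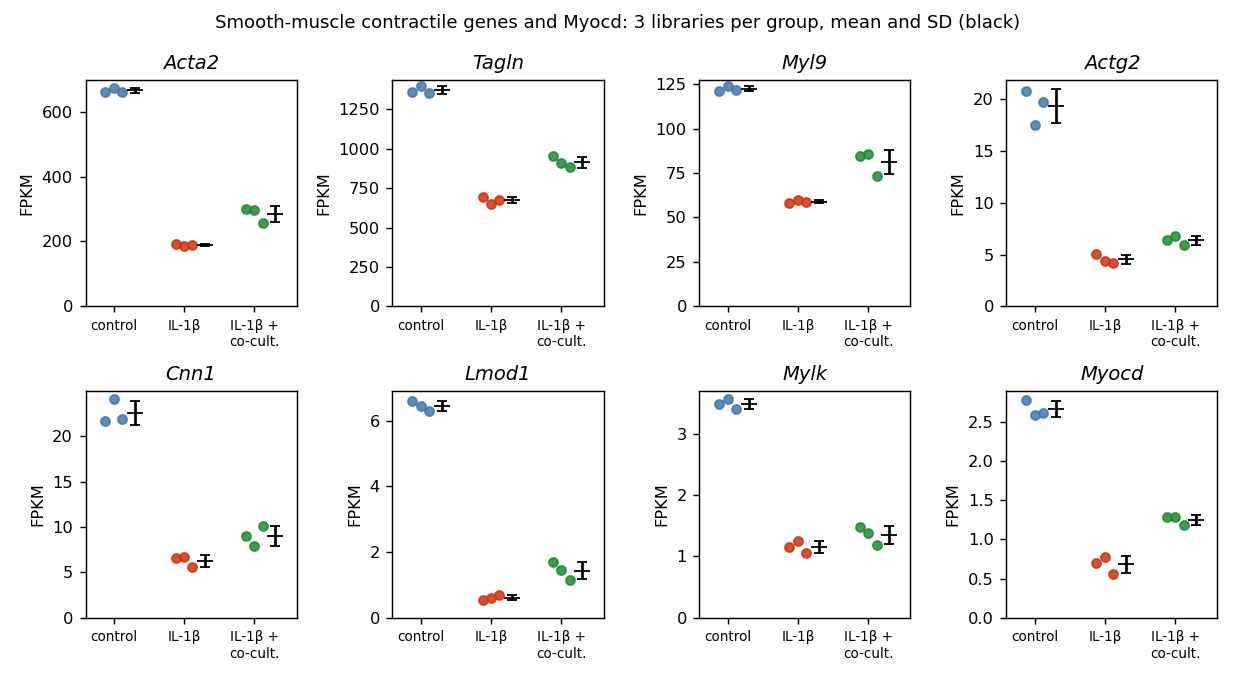
FPKM of 7 smooth-muscle contractile genes and of Myocd in each of the 3 libraries per group (coloured points), with the mean and SD in black on axes that start at 0. In each panel the control points lie highest, and in all panels but that of Mylk the co-culture points lie apart from and above the IL-1β points.

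The transcription factors behind this class of genes were also measured. Myocd, myocardin, the SRF coactivator of smooth and cardiac muscle, stood at 2.78, 2.59 and 2.61 FPKM in control, 0.700, 0.780 and 0.560 with IL-1β, and 1.28, 1.29 and 1.18 in co-culture. Its 3 groups did not overlap. The level was 3.91-fold lower with IL-1β (log2 -1.13, SE 0.08, adjusted p = 1.15e-06), 1.84-fold higher in co-culture than with IL-1β (0.42, SE 0.08, adjusted p = 0.00342) and 2.13-fold lower in co-culture than in control (adjusted p = 7.53e-05). Srf itself stood at 23.0, 23.9 and 23.2 in control, 17.9, 16.9 and 17.7 with IL-1β, and 21.8, 18.6 and 18.2 in co-culture. It fell 1.34-fold (log2 -0.40, SE 0.06, adjusted p = 0.000394). Its difference between co-culture and IL-1β was 0.15 (95% interval 0.01 to 0.28, adjusted p = 0.108), with 1 co-culture library at 21.8 and the others just above the IL-1β libraries. In co-culture Srf remained 16.4% below control (adjusted p = 0.00991). Mkl1, which encodes the myocardin-related factor MRTF-A, stood at 11.3 ± 0.523 in control, 9.46 ± 0.176 with IL-1β (adjusted p = 0.00351) and 9.73 ± 0.451 in co-culture, where its difference from IL-1β did not pass (0.04, 95% interval -0.07 to 0.15, adjusted p = 0.658).

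The cytoplasmic actins, which make up most actin of non-muscle cells, changed in smaller proportion but from very high levels. Actb stood at 4894, 4991 and 4899 FPKM in control, 4176, 4161 and 4232 with IL-1β, and 4815, 4786 and 4486 in co-culture. Actg1 stood at 3629, 3599 and 3574, then 2774, 2772 and 2626, and then 3541, 3232 and 3243. In all 3 groups these were, by mean level, the most abundant of the 46 genes. Actb fell by 15.0% and Actg1 by 24.3% with IL-1β (adjusted p = 0.000176 and 1.75e-05), and they rose 12.1% and 22.6% in co-culture (adjusted p = 0.0049 and 0.000597). Neither passed against control, with log2 differences of -0.07 and -0.11 (adjusted p = 0.115 and 0.0547), although the libraries did not overlap. Under all 3 other scalings Actb passed as lower than control, and Actg1 passed in 2 of them and without co-culture replicate 1 (adjusted p = 0.00646). The rise of Actb in co-culture did not pass with quantile normalization (adjusted p = 0.0836).

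The make-up of the actin messages shifted with these changes. Of the summed FPKM of the 6 actin genes, Acta2 made up 7.15 ± 0.0374% in control, 2.57 ± 0.0529% with IL-1β and 3.33 ± 0.179% in co-culture. Actb made up 53.0 ± 0.304%, 57.1 ± 0.870% and 55.1 ± 0.986%, and Actg1 38.7 ± 0.319%, 37.1 ± 0.925% and 39.2 ± 1.07%. The striated-muscle actins, which are not among the 46 genes, went the other way: Actc1 had 0.608 ± 0.00265%, 1.92 ± 0.0920% and 1.46 ± 0.0111%, and Acta1 0.316 ± 0.0242%, 1.21 ± 0.0316% and 0.893 ± 0.0161%. With IL-1β the shares of Acta1 and Actc1 together exceeded that of Acta2, whereas in control Acta2 exceeded them. The coding sequences of actin genes are nearly identical, so the authors' counting could have split reads between them, and the shares are uncertain to that extent.

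**Figure D3:**
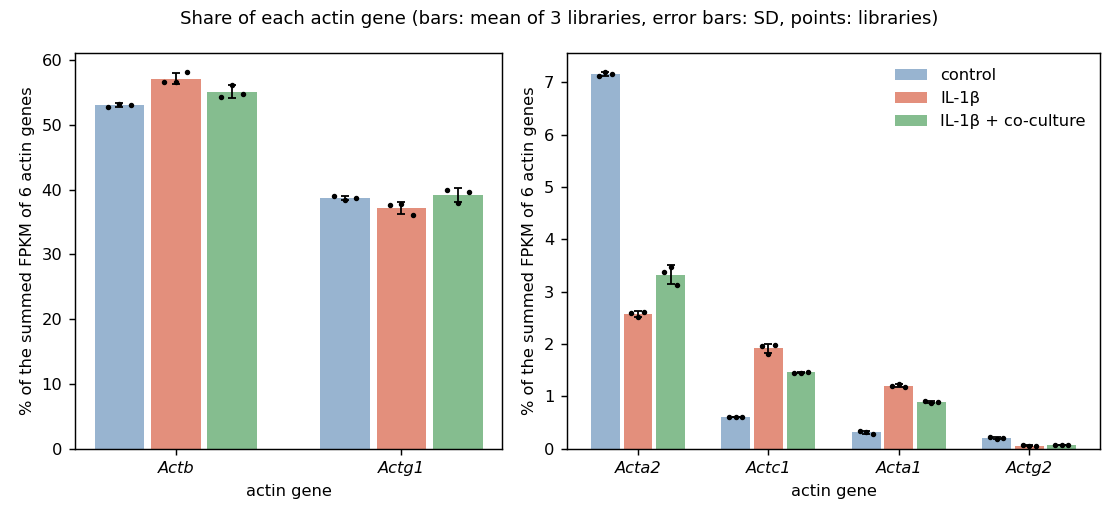
Percent of the summed FPKM of 6 actin genes that each gene held, in the 3 groups (bars are means of 3 libraries, error bars SD, points libraries, axes from 0; the left and right panels differ in scale). Acta2 falls from 7.15% to 2.57% with IL-1β and stands at 3.33% in co-culture, and Actc1 and Acta1 are highest with IL-1β.

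The non-muscle myosin chains and calponins fell as a group. Myh9, the heavy chain of non-muscle myosin IIA, stood at 152, 135 and 136 FPKM in control, 86.7, 78.0 and 90.9 with IL-1β, and 96.3, 115 and 103 in co-culture. It fell 1.66-fold (log2 -0.72, SE 0.07, adjusted p = 2.74e-05) and rose 1.23-fold in co-culture (0.30, SE 0.07, adjusted p = 0.0189). That rise did not pass without IL-1β replicate 2 (0.23, adjusted p = 0.0649) or without co-culture replicate 2 (0.23, adjusted p = 0.0635). The Myh9 row carries a gene ID that is not in the RefSeq table, so it is identified by symbol alone. Myh10, the heavy chain of myosin IIB, fell less, from 43.4 ± 1.16 to 36.2 ± 1.27 (adjusted p = 0.000269), and stood at 40.8 ± 0.896 in co-culture (adjusted p = 0.009 against IL-1β). Myl6, an essential light chain shared by smooth and non-muscle myosin, fell from 2153 ± 81.3 to 1798 ± 39.9 and rose to 1982 ± 30.9 (adjusted p = 0.000105 and 0.0121). Among the widely expressed calponins, Cnn2 fell 18.5% and rose 11.9% (adjusted p = 6.97e-05 and 0.00825). Cnn3 fell 11.7% (adjusted p = 0.000252), and its difference in co-culture was 0.05 on the log2 scale (95% interval -0.01 to 0.10, adjusted p = 0.212).

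All 4 tropomyosins, the coiled-coil proteins that line the filament, fell by between 6.56% and 18.7% with IL-1β, less than every contractile gene but Cald1. Of all tested genes 20.2% were called lower with IL-1β. Tpm4 fell from 1319.6 ± 35.2 to 1073 ± 30.7 FPKM (adjusted p = 9.01e-05) and Tpm1 from 432 ± 8.96 to 403 ± 3.94 (adjusted p = 0.00689). In co-culture Tpm1, Tpm3 and Tpm4 rose, to 446 ± 2.09, 472 ± 6.77 and 1239.7 ± 49.4 (adjusted p = 0.002, 0.00128 and 0.00299), and none of these passed against control. Under other scalings Tpm4 passed as lower than control in all 3 (adjusted p = 0.0146 to 0.0355) and Tpm3 with quantile normalization (adjusted p = 0.046). Tpm2, which smooth muscle and fibroblasts favour, stood at 400.0 ± 5.22 with IL-1β and 422 ± 23.0 in co-culture (log2 0.07, adjusted p = 0.205), and remained 12.3% below control (adjusted p = 0.00412). Its co-culture libraries were at 434, 395 and 436, and without replicate 2, the low one, the difference from IL-1β was 0.12 and passed (adjusted p = 0.0256). These are sums over splice forms, since each tropomyosin gene gives muscle and non-muscle isoforms that gene-level values do not separate.

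Of the 6 cross-linker genes 5 fell with IL-1β and all 6 rose in co-culture, beside 20.2% and 11.9% of all tested genes. Flnc, the filamin of muscle, stood at 32.1, 29.2 and 31.5 FPKM in control, 16.9, 16.5 and 17.8 with IL-1β, and 20.5, 20.5 and 19.3 in co-culture. It fell 1.81-fold (log2 -0.82, SE 0.05, adjusted p = 3.13e-07) and rose 1.18-fold (adjusted p = 0.00697), which left it 34.9% below control. The widely expressed filamin Flna fell 1.46-fold, from 362 ± 4.36 to 249 ± 5.32 (adjusted p = 1.16e-07), and rose to 289 ± 6.60 (adjusted p = 0.000403). Between the α-actinins of non-muscle cells the sizes differed: Actn4 fell 28.8% and Actn1 13.1% (adjusted p = 6.73e-07 and 0.000295), and whether that difference passes was not tested. Actn1 stood at 256 ± 8.88 in co-culture and 250.3 ± 4.17 in control, at a log2 difference of 0.03 (95% interval -0.03 to 0.10, adjusted p = 0.417). Lima1, which stabilises filament bundles, fell 19.8% and rose 11.0% (adjusted p = 3.21e-05 and 0.0109).

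The row named Palld did not fall with IL-1β, unlike the other cross-linkers, and rose in co-culture as they did. Palladin is a scaffold that binds α-actinin in stress fibres, but the gene ID of this row belongs to the entry that RefSeq now calls Palldl1, a separate entry from Palld, so the row may not describe palladin itself. It stood at 1.29, 0.880 and 1.16 FPKM in control, 1.34, 1.99 and 1.30 with IL-1β, and 3.04, 3.20 and 2.70 in co-culture. The co-culture libraries were above all others. The difference of IL-1β from control was 0.26 on the log2 scale (SE 0.12, adjusted p = 0.0958), co-culture was 1.93-fold above IL-1β (0.65, SE 0.12, adjusted p = 0.00355), and it was 2.68-fold above control (0.92, SE 0.12, adjusted p = 0.000248).

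Among the 5 focal adhesion genes vinculin alone passed with IL-1β, as lower, where 20.2% of all tested genes were called lower. Vcl, which couples talin to actin and is recruited under tension, stood at 96.5, 94.8 and 96.8 FPKM in control, 48.6, 49.4 and 49.3 with IL-1β, and 69.3, 66.2 and 60.4 in co-culture. It fell 1.96-fold (log2 -0.95, SE 0.04, adjusted p = 6.37e-08), rose 1.33-fold (0.40, SE 0.04, adjusted p = 0.000163) and remained 32.0% below control (adjusted p = 8.55e-06). The other 4 did not pass with IL-1β, and their intervals were narrow. Zyx, zyxin, a LIM protein that repairs strained filaments, had 89.3 ± 1.44 in control and 89.8 ± 1.24 with IL-1β, a log2 difference of 0.01 (95% interval -0.08 to 0.10, adjusted p = 0.888). Pxn, the adaptor paxillin, differed by 0.00 (95% interval -0.08 to 0.09) and Tes, testin, a partner of zyxin, by -0.02 (95% interval -0.12 to 0.07). Tln1, talin, which links integrins to actin, had 47.3 ± 0.930 and 44.7 ± 0.457, a difference of -0.08 (95% interval -0.15 to -0.01, adjusted p = 0.057), and passed under each of the 3 other scalings. In co-culture none of these 4 passed against IL-1β. The exceptions on leaving out a library were Zyx, lower without co-culture replicate 1 (-0.15, adjusted p = 0.00634), and Pxn, higher without control replicate 3 (adjusted p = 0.0416). Pxn at 37.3 ± 0.704 passed as higher than control at 34.3 ± 1.60 (adjusted p = 0.0449), but under none of the 3 other scalings. Zyx at 83.8 ± 5.38 in co-culture did not pass against control (log2 -0.09, adjusted p = 0.119). Under each of the 3 other scalings (adjusted p down to 0.017) and without co-culture replicate 1, Zyx passed as lower than control.

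The LIM-domain scaffolds were mixed. Fhl1, which binds actin and signalling proteins in muscle, stood at 79.8, 75.1 and 77.2 FPKM in control, 30.0, 29.1 and 29.8 with IL-1β, and 43.2, 42.8 and 42.4 in co-culture, with little spread inside a group. It had the smallest adjusted p of the 46 genes with IL-1β (2.61-fold lower, log2 -1.36, SE 0.03, adjusted p = 3.48e-10) and in co-culture against IL-1β (1.45-fold higher, 0.52, SE 0.03, adjusted p = 3.07e-06). Its relative Fhl2 fell only 17.0% (adjusted p = 0.000602), and 9.60% remained against control (adjusted p = 0.0271). Csrp1, a small LIM protein of smooth muscle and fibroblasts, fell 22.9% and rose 14.7% (adjusted p = 1.84e-05 and 0.00414). Csrp2 stood at 47.3 ± 0.822, 44.0 ± 2.66 and 40.3 ± 2.33 in control, IL-1β and co-culture, and passed only between co-culture and control (adjusted p = 0.00733), although it passed as lower with IL-1β under 2 of the 3 other scalings.

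Pdlim1, an α-actinin-binding PDZ and LIM protein, was called in the opposite direction to the rest. It stood at 104, 105 and 101 FPKM in control, 129.8, 128 and 126 with IL-1β, and 116, 108 and 109 in co-culture. It rose 1.24-fold with IL-1β (log2 0.30, SE 0.03, adjusted p = 3.93e-05) and fell by 13.3% in co-culture (adjusted p = 0.0019). The related Pdlim5 fell 21.9% with IL-1β and rose 13.6% in co-culture (adjusted p = 1.21e-05 and 0.00337). Pdlim7 fell 14.1% (adjusted p = 0.000734) and stood at 68.4 ± 0.935 with IL-1β and 66.6 ± 3.09 in co-culture, a log2 difference of -0.04 (95% interval -0.12 to 0.04, adjusted p = 0.47).

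The genes of actin turnover and its signalling changed in small proportion. Cfl1, cofilin, which cuts filaments, fell by 7.37% and Pfn1, profilin, which feeds monomers to growing ends, by 5.75% (adjusted p = 0.0143 and 0.0412). Rhoa, the GTPase that drives stress fibre assembly, fell 14.7% and its effector kinases Rock1 and Rock2 12.6% and 19.9% (adjusted p = 0.000954, 0.00595 and 5.44e-05). Rhob, a GTPase of endosomes with a short-lived message, had 97.3 ± 1.51 in control and 93.0 ± 0.429 with IL-1β (adjusted p = 0.0863), where it passed as lower under each of the 3 other scalings, and rose to 104 ± 3.06 in co-culture (adjusted p = 0.00361). In co-culture Rock2, Cfl1 and Pfn1 also rose against IL-1β, by 16.6%, 12.3% and 7.54% (adjusted p = 0.00209, 0.00386 and 0.0342). The fall of Pfn1 with IL-1β did not pass without any 1 of the 6 control and IL-1β libraries or without co-culture replicate 2 (adjusted p up to 0.121). Its rise in co-culture passed without co-culture replicate 3 but not without any 1 of the other 8 (adjusted p up to 0.109). For Cfl1 the fall did not pass without control replicate 2 (adjusted p = 0.0527) or IL-1β replicate 3 (0.0624).

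**Figure D4:**
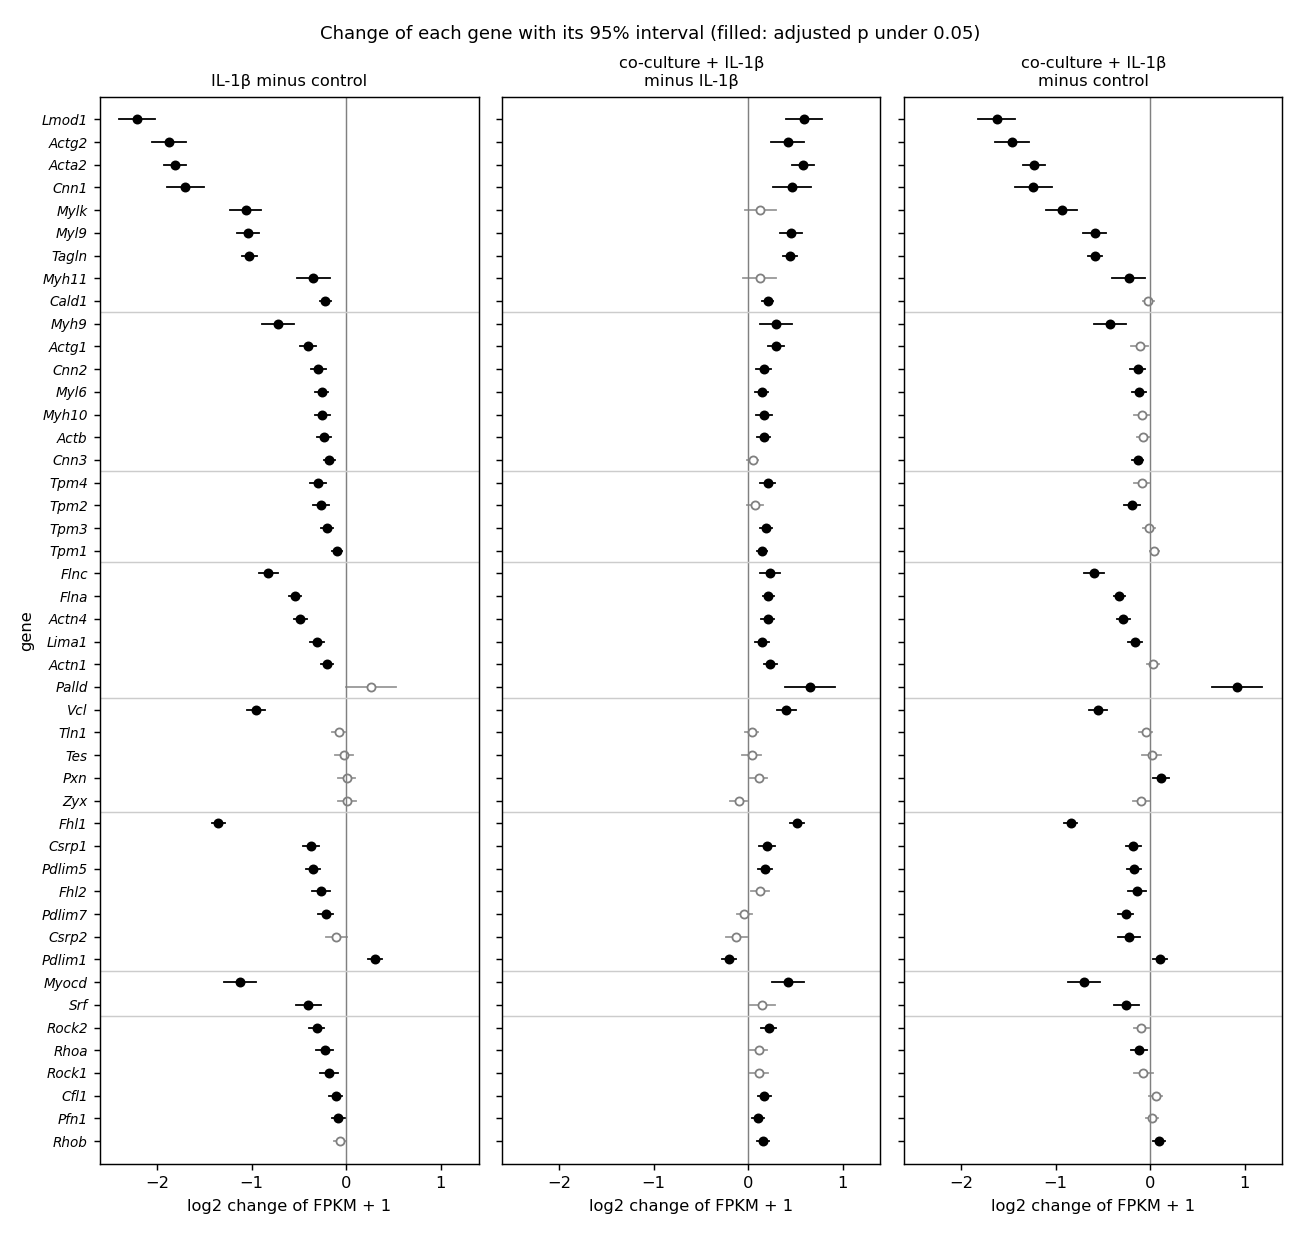
Log2 change of FPKM + 1 for each of the 46 genes with its 95% interval in the 3 comparisons, grouped by role with horizontal lines between roles; filled points passed an adjusted p of 0.05 and open points did not. The smooth-muscle genes at the top reach -2.21 with IL-1β, while Tln1, Tes, Pxn and Zyx lie near 0.

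Other genes of the same pathways, which are not among the 46, changed less uniformly. Of 18 tested genes of SRF cofactors and of YAP or TEAD targets, 5 rose and 9 fell with IL-1β (median log2 -0.14), beside 26.5% of all genes called higher and 20.2% lower. Ctgf (CCN2), a matricellular protein gene that both SRF and YAP drive, fell 2.78-fold, from 1199 ± 11.2 to 430.5 ± 11.9 FPKM (adjusted p = 8.36e-09), and rose to 593 ± 50.4 in co-culture (adjusted p = 0.00021). Ankrd1, another YAP target, rose 3.45-fold, from 14.8 ± 1.00 to 51.0 ± 1.64 (adjusted p = 1.39e-09), and stayed at 51.1 ± 1.26 in co-culture, a log2 difference of 0.00 (95% interval -0.11 to 0.11). The immediate-early genes Egr1 and Fos, which SRF serves with other cofactors, fell 1.61-fold and 2.82-fold (adjusted p = 7.73e-07 and 2.12e-06). In co-culture, where 11.9% of all genes were called higher and 10.1% lower, 3 of the 18 rose, namely Ctgf, Egr1 and Fos, and 1, Tead1, fell (log2 -0.14, adjusted p = 0.0493). The fall of Tead1 did not pass with a common sum (adjusted p = 0.104) or without any 1 library but IL-1β replicate 1 (up to 0.157). The rise of Fos (log2 0.38, adjusted p = 0.016) did not pass without IL-1β replicate 3, co-culture replicate 1 or co-culture replicate 3 (adjusted p = 0.0571, 0.0507 and 0.0516).

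Of 31 tested adhesion kinases and adaptors 2 rose and 19 fell with IL-1β, at a median of -0.18, and in co-culture 10 rose and 21 did not pass, at 0.06. The shares of all genes were again 26.5% higher and 20.2% lower with IL-1β, and 11.9% and 10.1% in co-culture. Ezr, ezrin, which ties actin to the cell membrane, fell 1.71-fold, from 56.4 ± 0.745 to 33.0 ± 0.450 FPKM, and rose 1.45-fold to 48.0 ± 1.27 (adjusted p = 1.96e-08 and 2.38e-06). Lpp, a relative of zyxin, fell 1.58-fold (adjusted p = 1.7e-06) and Tln2, the second talin, 1.44-fold (adjusted p = 1.08e-05). Ilk, the scaffold that joins integrins to parvin, fell 17.6% and rose 9.97% (adjusted p = 1.17e-05 and 0.00441). Tgfb1i1 (Hic-5), a relative of paxillin, stood at 87.5 ± 1.98 in control, 62.7 ± 1.57 with IL-1β and 59.3 ± 4.57 in co-culture. It was 1.47-fold below control in co-culture (adjusted p = 1.88e-05).

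Of 30 tested genes of actin nucleation, capping and depolymerization 6 rose and 13 fell with IL-1β, and 11 rose and 1 fell in co-culture (medians -0.07 and 0.07), beside the same shares of all genes, 26.5% and 20.2% with IL-1β and 11.9% and 10.1% in co-culture. The monomer-binding thymosins split, as Tmsb4x fell from 4776 ± 47.9 to 3672 ± 113 FPKM and Tmsb10 rose from 4836 ± 143 to 6244 ± 314 (adjusted p = 5.51e-06 and 5.22e-05). Diaph1, a formin that extends unbranched filaments, rose 1.23-fold (adjusted p = 4.28e-05). In co-culture Arpc5, a subunit of the Arp2/3 nucleator, and Cttn, cortactin, rose 1.12-fold and 1.10-fold (adjusted p = 0.00167 and 0.00229), and Arpc1b fell by 11.9% (adjusted p = 0.00298).

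Markers of cell types that carry the same contractile genes were measured beside them. For the counts that follow, 26.5% of all tested genes were called higher and 20.2% lower with IL-1β. In co-culture against IL-1β the shares were 11.9% and 10.1%. Of 12 markers of vascular smooth muscle and pericytes 6 were above the filter, of which 5 fell with IL-1β. The 1 that rose, Des, is also on the skeletal muscle list below and counts in both. The other 6 (Rgs5, Kcnj8, Abcc9, Notch3, Kcnmb1 and Pln) did not exceed 0.73 FPKM in any library, and Rgs5 was listed at 0 in all 3 co-culture libraries. In co-culture against IL-1β 3 of the 6 rose (Smtn, which encodes smoothelin, Cspg4 and Itga8) and 3 (Des, Mcam and Synm) did not pass. Smtn fell 2.03-fold and rose 1.33-fold, Cspg4 2.16-fold and 1.31-fold, and Itga8 2.55-fold and 1.60-fold. The list summed to 139.9 to 140.7 FPKM in control, 88.2 to 93.3 with IL-1β and 105 to 115 in co-culture. All 11 tested of 13 skeletal muscle markers rose with IL-1β, with sums of 191 to 197, 417 to 440 and 407 to 454. All 9 chondrocyte markers fell, with sums of 1904 to 1988, 439 to 459 and 619 to 675, and Col2a1 and Acan stood at 1042 and 285 FPKM in control, so the cells carried defining messages of cartilage. Of 12 dermal fibroblast markers 7 were above the filter, of which 5 rose and 1 fell with IL-1β, and 1 rose and 4 fell in co-culture against IL-1β. The list, in which the most abundant genes weigh most, summed to 2547 to 2651, 2539 to 2558 and 2005 to 2092. Pi16, Dpp4, Cd34, Clec3b and Entpd1 were below the filter, and the highest mean in co-culture among them was 0.847 FPKM, for Pi16. The part of any of these cell types in the changes of the 46 genes was not tested.

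In co-culture 4 contractile genes stood furthest below control by the log2 change of FPKM + 1. Of the 46 genes Lmod1, Actg2, Cnn1 and Acta2 had log2 differences from control of -1.62 to -1.23, and Mylk, Fhl1 and Myocd of -0.93 to -0.70. Flnc, Myl9, Tagln and Vcl followed at -0.60 to -0.55. The contractile genes Myh11 and Cald1 were at -0.23 and -0.02. By ratio of means the order differed, as Mylk was 2.58-fold below control, Cnn1 2.50-fold and Acta2 2.34-fold. Members that did not pass against control included Actb, Actg1, Cald1, Actn1, Tpm1, Tpm3, Tpm4, Myh10, Zyx, Cfl1, Pfn1, Rock1 and Rock2. Of these Actb, Tpm4, Myh10, Rock2 and Zyx passed as lower under all 3 other scalings (adjusted p down to 0.00722, 0.0146, 0.0179, 0.00992 and 0.017), Actg1 under 2 and Tpm3 under 1. The calls of Rhob, Pdlim1 and Pxn as higher than control, at 0.09 to 0.12 log2, ended under each of the 3 other scalings. As lower, Cnn2 did not pass without control replicate 1 or 2 or co-culture replicate 3, and Myl6 without control or co-culture replicate 2 (adjusted p up to 0.0599 and 0.0652). Fhl2 did not pass without control replicate 1 or 3 or co-culture replicate 2 or 3, and Rhoa without control or co-culture replicate 2 or 3 or IL-1β replicate 3 (up to 0.0963 and 0.139). Myh11 passed without IL-1β replicate 1 but not without any 1 of the other 8 libraries (up to 0.117).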

How the data were processed

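Per the labels' protocols, poly(A) RNA was enriched and copied from random primers. They do not state whether strand was kept. The authors deposited 1 table of FPKM values (17588 genes, 2 decimals, a column for each of the 9 libraries) per the file headers. Per the submitters' processing notes the build was GRCm38, which is of mouse, while the labels and gene IDs are of rat. Aligner, counter and annotation were not given in the sources used here. Of the gene IDs 16396, and 45 of the 46 members' IDs, are in a rat GRCr8 RefSeq table, used for names, and promoter windows came from RefSeq on the same build. None of its coordinates was applied to the FPKM table. The table holds no counts, so no count test was run, and the depth limits precision to an unknown extent.

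Groups came from sample titles. Genes with at least 1 FPKM in at least 3 libraries (11732) were tested on log2(FPKM + 1) with limma 3.58.1 in R 4.3.3, fitting all 9 libraries together with a trend of variance on mean level, with two-sided p-values and Benjamini-Hochberg adjustment per comparison over all genes and a threshold of 0.05. Folds are ratios of mean FPKM, and percent changes are of mean FPKM. The test was checked on simulated data with normal noise. A log2 change of 1 was recovered in 98% of changed genes in each comparison. One of 0.25 was recovered in 52% for IL-1β against control. For co-culture it was 38% against IL-1β and 62% against control. Not passing therefore does not show that a gene was unchanged. The members, gene lists and tests were chosen with earlier results of these data known. Per-library values are given for the contractile genes, both cytoplasmic actins, Srf, Myocd and the up to 12 called members with the largest log2 change per comparison. Up to 4 called genes with the smallest p were eligible per pathway list, and Actc1, Mkl1 and some further list members were named after their values were seen. One further pathway list is not reported here. Alternatives covered pseudocounts, filters, scalings, the samples in the fit, the trend, a replicate block and leaving out each library. Figures were drawn with matplotlib 3.10.9.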

Additional observations from a re-analysis of the deposited data

How the results depend on the processing

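No called change among the 46 genes reversed direction under any alternative run. With IL-1β against control, members called lower numbered 34 to 41 and higher 1 over the 10 alternatives, where 34 is with genes of mean FPKM of at least 5, which leaves 41 members to test; leaving out a library gave 36 to 39 and 1. For co-culture against IL-1β they were 28 to 31 higher and 1 lower, and without a library 30 or 31 higher and 1 to 2 lower, Csrp2 joining without IL-1β replicate 2 and Zyx without co-culture replicate 1. For co-culture against control 24 to 33 were lower, and 23 to 28 without a library. The 4 called higher became 2 with no filter on low values and with the replicate block, and 1 with libraries rescaled to a common sum, with quantile normalization, with median-of-ratios scaling, with the 6 libraries compared alone and without a mean-variance trend. Leaving out a library gave 1 to 2. Over all genes, those higher in co-culture than in control fell from 2554 to 1541 with a common sum and to 1641 with quantile normalization, and the cause was not tested. Replicate numbers did not pair the libraries: r of deviations from group means was -0.0907 to 0.0855 for equal numbers and -0.0768 to 0.0887 for unequal ones. With the replicate block 37 members were lower and 1 higher with IL-1β, 30 higher and 1 lower in co-culture against IL-1β, and 25 lower against control. Depth is unknown, so Palld, Myh11, Myocd, Mylk and Lmod1, at a few FPKM or less, are the least certain levels.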
